A study of Mus musculus with 18 samples.

Results

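Lin28a, Lin28b, Hmga2, Trim71, Igf2bp1, Igf2bp2 and Igf2bp3 are genes of developmental timing. Most genes of this kind have products that are abundant in early embryonic cells and decline as tissues mature. The 7 genes were taken by their symbols, and all were found among the 14686 genes listed in at least 1 of the 3 deposited RNA-seq tables. Each of the 7 was listed in all 3 tables, as were 12677 genes in all. The RNA came from mouse limb buds, and 18 libraries fell evenly into 6 groups of 3. Forelimbs at stage e10.5, in days of embryonic development, and hindlimbs at e11.0 came from wild type CD1 mice. Hindlimbs of wild type and of Pitx1 null embryos, both of the BALB/c strain per the labels, were taken at e11.0 and at e11.5. The CD1 pair compares limbs at a matched stage of outgrowth, since the hindlimb lags the forelimb. The Pitx1 pairs ask what depends on Pitx1, a transcription factor of the hindlimb. The labels do not give the form of the null allele, the number of embryos pooled in a library or whether replicates came from separate litters, so a p-value reflects the spread among these libraries alone, and that spread may be technical.

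Lin28a and Lin28b are RNA-binding proteins that block the maturation of the let-7 microRNAs. Mature let-7 in turn pairs with the 3′ untranslated regions (3′UTRs) of Hmga2, Trim71, the Igf2bp genes and Lin28 itself and lowers their output, so that the proteins of early development and let-7 oppose one another. Hmga2 is a chromatin protein that binds AT-rich DNA, Trim71 is an RNA-binding ubiquitin ligase, and Igf2bp1, Igf2bp2 and Igf2bp3 are mRNA-binding proteins that hold and stabilise their targets. Mice that lack Hmga2 are small, the pygmy phenotype.

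The let-7 sequences show what the 7 genes have in common. In the RefSeq table for GRCm38.p6, 10 mature let-7 and miR-98 names share the seed GAGGUAG, bases 2 to 8 of the microRNA, out of 1679 mature names. One further name in the table carries the same seed. The following 4 are printed with the seed in capitals to show that these family members differ only outside it.
mmu-let-7a-5p: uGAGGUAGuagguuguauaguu
mmu-let-7d-5p: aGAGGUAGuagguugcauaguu
mmu-let-7g-5p: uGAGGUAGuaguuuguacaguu
mmu-miR-98-5p: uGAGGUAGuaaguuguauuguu

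The letters that pair with this seed, CTACCTC, were searched on the sense strand only, in the longest annotated 3′UTR of each gene (GENCODE M 21, GRCm38). All 7 genes held them, 20 times in total. Lin28b, Hmga2, Trim71 and Igf2bp1 had 4 matches each, Lin28a had 2, and Igf2bp2 and Igf2bp3 had 1 each. Among 12798 listed genes with an annotated 3′UTR, 10.87% had at least 1 match and only 11 genes had 4 or more. Those 11 were the 4 named here with Nr6a1 (8 matches), Mcf2l (7), Nudt12 (7), Trim6 (6), D10Wsu102e, Hic2 and Zbtb37 (4 each). Matches were also counted against 3′UTRs of like length. Of 1821 genes with a 3′UTR of 0.8 to 1.25 times the length of that of Hmga2, 17.0% had a match and 0.11% had as many. For Igf2bp2, by contrast, 12.8% of 2234 genes of like length had a match. These genes are textbook let-7 targets, so the matches describe them and test nothing, and let-7 itself was not measured in these libraries.

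The match nearest the stop codon is printed for each gene, with CTACCTC in capitals, so that the surrounding bases can be compared. Coordinates are GRCm38, and all 7 genes lie on the minus strand. In GENCODE M 21 Lin28a spans chr4:134003330-134018841, Lin28b chr10:45376620-45486395, Hmga2 chr10:120361275-120476469 and Trim71 chr9:114507133-114564369. Igf2bp1 spans chr11:95957163-96005940, Igf2bp2 chr16:22059009-22163299 and Igf2bp3 chr6:49085223-49214957, and each printed stretch lies in the 3′UTR of its gene.
Lin28a, chr4:134005188-134005209: acagcctgttgaaCTACCTCat
Lin28b, chr10:45381021-45381042: ccgggcgggaagtCTACCTCat
Hmga2, chr10:120364223-120364244: cgacattcaatttCTACCTCag
Trim71, chr9:114512471-114512492: cattgcctaagtcCTACCTCag
Igf2bp1, chr11:95961777-95961798: tgtgcgaagtaaaCTACCTCaa
Igf2bp2, chr16:22059472-22059493: acacaaataaaagCTACCTCag
Igf2bp3, chr6:49086786-49086807: catttttactcaaCTACCTCag

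Each of these 7 is followed by A, the letter that lies opposite the first base of let-7. Over all 20 matches the A followed both matches of Lin28a, all 4 of Trim71, 3 of 4 of Igf2bp1 and the single match of Igf2bp2 and of Igf2bp3, but 1 of 4 in Lin28b and 1 of 4 in Hmga2. In Lin28b, Hmga2 and Trim71 the first match began 36, 58 and 166 bases after the stop codon. In Lin28a, Igf2bp1, Igf2bp2 and Igf2bp3 it began 909, 1715, 1313 and 548 bases after it. Trim71 also had 2 matches close together, which began 3591 and 3617 bases after the stop codon.
Trim71 match 3, chr9:114509046-114509067: tagtatggattttCTACCTCaa
Trim71 match 4, chr9:114509020-114509041: ggcaaaaagttgtCTACCTCac

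**Figure D1:**
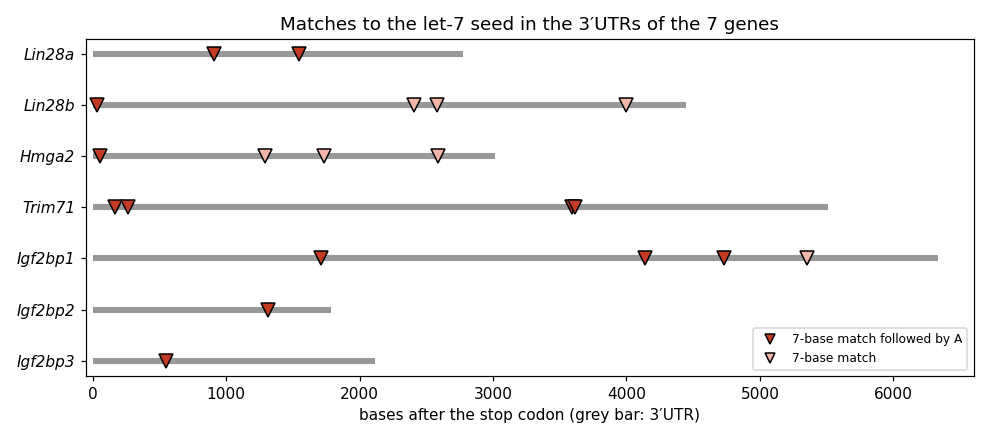
Position of each 7-base match to the let-7 seed (triangles; darker where an A follows) along the 3′UTR (grey bar) of each gene, in bases after the stop codon. Lin28b and Hmga2 have a match that begins within the first 58 bases and 3 more farther on, and Igf2bp2 and Igf2bp3 have 1 match each.

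The 3 tables were normalized separately, as counts per 1000000 reads on listed genes (CPM). Depth on listed genes, in units of 1000000 reads, was 24.5 to 45.0 in the CD1 libraries, 17.4 to 44.2 at e11.0 and 30.2 to 53.6 at e11.5, so that 1 read was worth at most 0.0575 CPM and counting error is small for the 7 genes. The titles place replicates 1 and 2 of every group in run3982. Replicate 3 carries run3412 in the e11.0 Pitx1 groups and run126 in the e11.5 groups, while the CD1 titles name no run for it. Ribosomal RNA was depleted before library preparation for the CD1 groups and the e11.0 Pitx1 groups, whereas mRNA was enriched at e11.5, where replicate 3 was also unstranded. Stage and library kind therefore cannot be told apart between e11.0 and e11.5. Pitx1 matched the labels in all 18 libraries, with 0.27 to 0.46 CPM in CD1 forelimb and 183 to 223 CPM in CD1 hindlimb. In the null it was 19.3 to 22.9 CPM against 114 to 136 CPM in wild type at e11.0, and 72.1 to 88.6 against 319 to 364 CPM at e11.5. Prrx1, a marker of limb mesenchyme, was present at 315 to 909 CPM throughout.

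Levels of different genes were compared per kilobase of exon. In the CD1 libraries Hmga2 stood highest of the 7 with a mean of 94.2 CPM per kb, above 96.8% of listed genes, followed by Igf2bp1 at 76.0, Igf2bp3 at 44.6 and Igf2bp2 at 36.2. Trim71 at 24.1, Lin28b at 23.7 and Lin28a at 16.9 CPM per kb were the lowest, with Lin28a above 76.5% of listed genes. The e11.0 Pitx1 table gave the same order except that Lin28b, at 20.6, stood above Trim71, at 14.2 CPM per kb. In the e11.5 table Hmga2 had 207 CPM per kb and stood above 98.9% of listed genes, while Lin28a had 4.83 CPM per kb and stood above 42.5%. Hmga2 was thus about as high as the top few percent of genes in each table, and Lin28a moved from the upper part to the middle of the listed genes. Together the 7 genes took 1636 to 3088 CPM of a library.

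**Figure D2:**
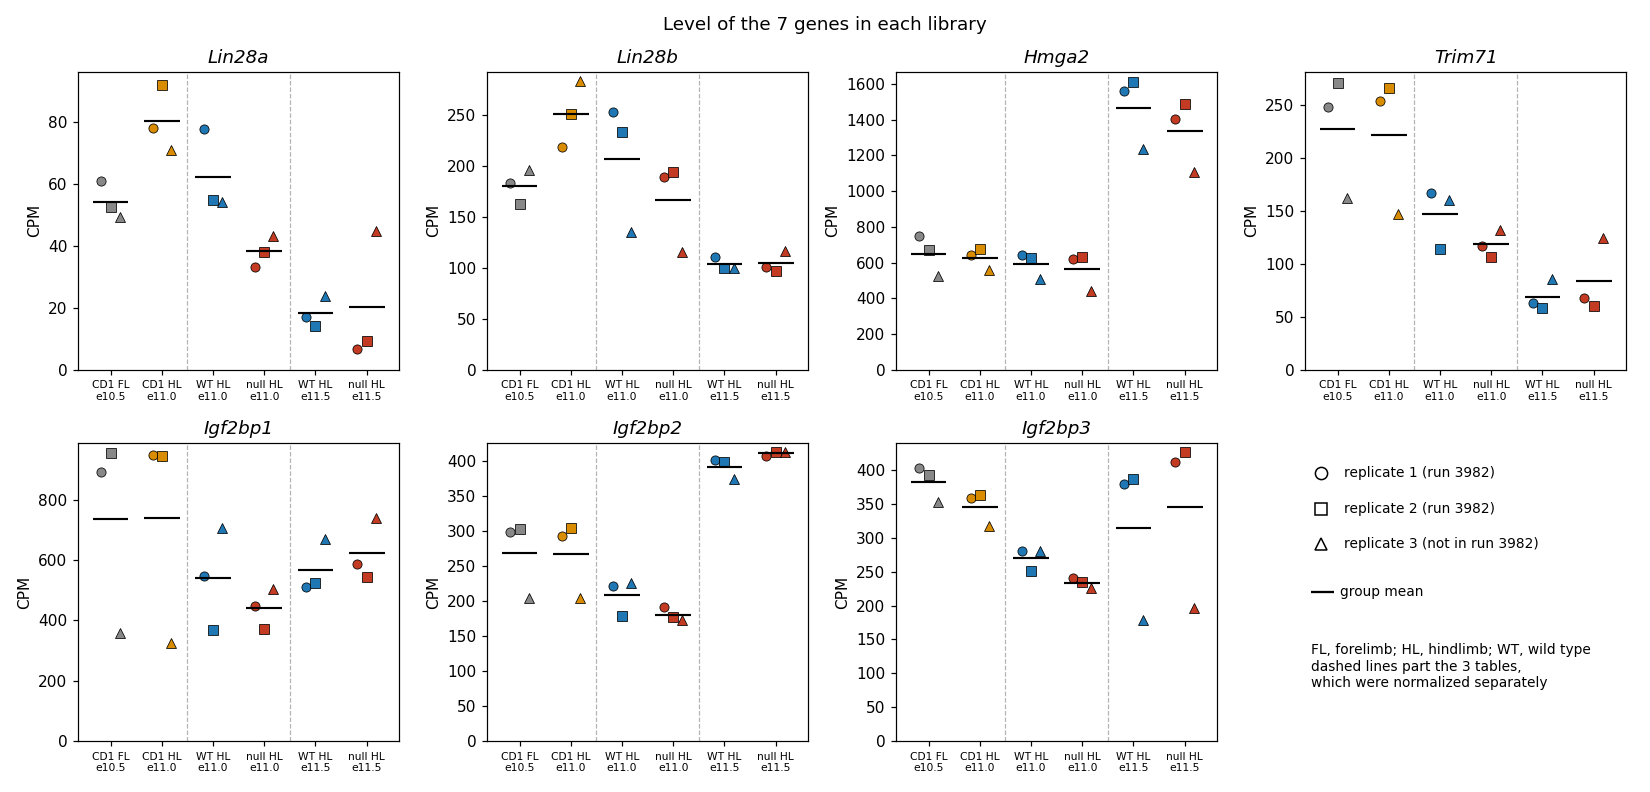
CPM of each gene (vertical axes, starting at 0) in each of the 18 libraries, by group, with the group mean as a line and the marker showing the replicate number. All 6 Hmga2 values at e11.5 lie at or above 1107 CPM and all 12 others at or below 748 CPM, and replicate 3 often stands apart from replicates 1 and 2. The e11.5 libraries were of another kind and normalized separately, and how many genes separate in this way was not counted.

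The Lin28 paralogs were the members that differed between forelimb and hindlimb. Lin28a measured 60.8, 52.6 and 49.3 CPM in replicates 1, 2 and 3 of the CD1 forelimb and 78.2, 92.0 and 71.2 CPM in the CD1 hindlimb. Every hindlimb library was above every forelimb library, and the groups did not overlap. The difference on the log2(CPM + 1) scale was 0.56 ± 0.07 (SE), with an adjusted p of 0.00167 by limma, a linear model fitted to all 13540 genes with a term for the run. Lin28b measured 183, 162 and 195 CPM in forelimb and 218, 250 and 283 CPM in hindlimb, again with no overlap. Its log2 difference was 0.47 ± 0.06, with a limma adjusted p of 0.00219. Same-numbered pairs differed by 0.36, 0.79 and 0.52 on the log2 scale for Lin28a and by 0.26, 0.62 and 0.53 for Lin28b. The shared direction of these pairs follows from the lack of overlap and adds no support. The calls of both genes were kept in 6 of 6 fits that left out 1 library.

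These were 2 of the 7 genes, where limma called 5.87% of all genes in either direction, 2.41% higher and 3.46% lower in hindlimb. Groups failed to overlap for the same 2 genes, against 11.2% of all genes, 5.87% higher and 5.32% lower. Without the run term neither gene was called, with adjusted p of 0.342 for Lin28a and 0.474 for Lin28b, and only 13 genes were called in all. The forelimb and hindlimb differ in age as well as in limb type, and the 2 cannot be told apart here. In a bulk sample, fewer cells of a type and less RNA per cell cannot be told apart either. Erythroid markers moved in the same direction, with summed levels of 3830 to 3930 CPM in forelimb and 3910 to 5190 CPM in hindlimb and 4 of 12 tested called higher. The part of blood cells in the Lin28 difference was not tested.

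Hmga2 did not pass between the limbs, with 748, 672 and 526 CPM in forelimb and 645, 678 and 560 CPM in hindlimb, and the groups overlapped. The limma log2 difference was -0.04, with a 95% interval from -0.18 to 0.10. Trim71 measured 249, 271 and 163 CPM in forelimb and 254, 266 and 147 CPM in hindlimb. In each limb replicate 3 was the lowest library, and the log2 difference was -0.05 (95% interval -0.17 to 0.07). Replicates 1 and 2 of both limbs lay within 249 to 271 CPM.

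Igf2bp1 had the widest spread of the 7 between the CD1 libraries. It had 890, 955 and 359 CPM in forelimb and 947, 943 and 324 CPM in hindlimb, with replicate 3 below the other two in both limbs, and a log2 difference of -0.03 (95% interval -0.15 to 0.10). Igf2bp2 had 298, 302 and 205 CPM in forelimb and 293, 305 and 204 CPM in hindlimb. Same-numbered libraries were almost equal, and the interval of the log2 difference ran from -0.10 to 0.09. Igf2bp3 had 403, 392 and 353 CPM in forelimb and 358, 363 and 317 CPM in hindlimb. The hindlimb value was the lower one in 3 of 3 pairs, with a log2 difference of -0.15 ± 0.04 and a limma adjusted p of 0.0800, which missed the threshold of 0.05. DESeq2 on the recovered reads called it, with an adjusted p of 0.0394. The intervals of Hmga2, Trim71, Igf2bp1 and Igf2bp2 exclude a difference as large as that estimated for either Lin28 gene, but do not show that the limbs are equal.

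**Figure D3:**
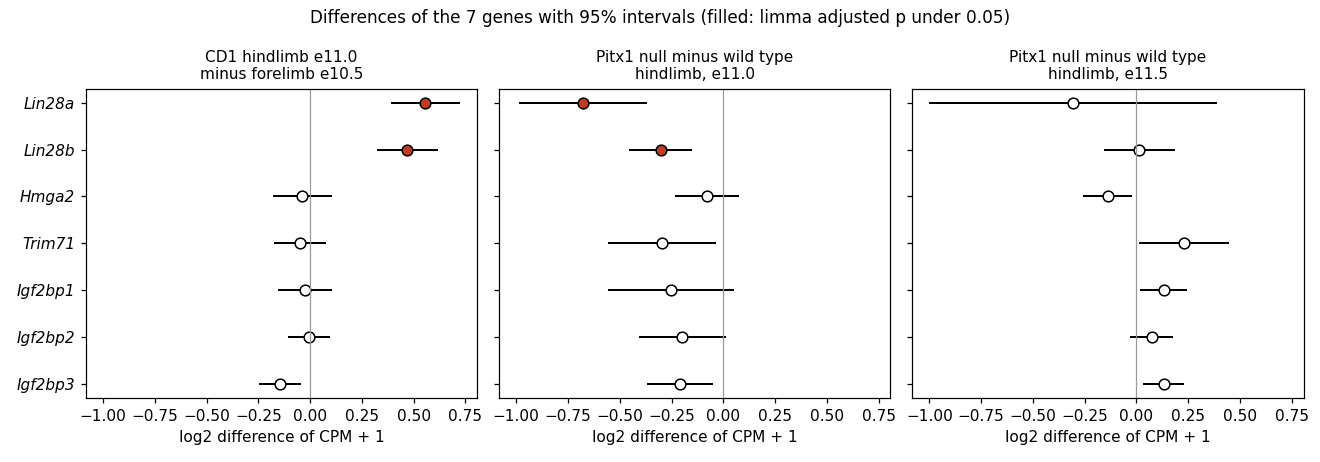
Log2 difference of CPM + 1 of each gene (points; filled where the limma adjusted p is under 0.05) with its 95% interval (lines) in the 3 comparisons. Lin28a and Lin28b are to the right of 0 in CD1 hindlimb and to the left in the null at e11.0, and no point is filled at e11.5. The intervals are not adjusted for the number of genes tested, so some open points have intervals that exclude 0.

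In the Pitx1 null hindlimb at e11.0 the same 2 paralogs were called, lower than in wild type. Lin28a measured 77.9, 54.8 and 54.3 CPM in the wild type and 33.4, 38.2 and 43.1 CPM in the null. The groups did not overlap, and wild type replicate 1 stood above the other 5 libraries. Its log2 difference was -0.68 ± 0.14, with a limma adjusted p of 0.0175 over 14027 genes. Lin28b measured 253, 233 and 134 CPM in the wild type and 189, 194 and 115 CPM in the null. Replicate 3 was the lowest in both groups, so the groups overlapped, and the null was the lower in 3 of 3 same-numbered pairs, by 0.42, 0.26 and 0.22 on the log2 scale. The fitted difference was -0.30 ± 0.07, with a limma adjusted p of 0.0229.

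These 2 of 7 genes stand beside 13.1% of all genes called in either direction, 4.73% higher and 8.41% lower. The median log2 difference of the 7 was -0.25, and that of all genes tested was -0.07. The call of Lin28a was lost without wild type replicate 1 or without null replicate 2. Its log2 difference without wild type replicate 1 was -0.48, while without null replicate 2 it was -0.68, as with all libraries, with an adjusted p of 0.0583. The lowest and highest adjusted p over the 6 fits without 1 library were 0.00142 and 0.0789. Lin28b kept its call in 1 of 6 such fits, with a log2 difference between -0.34 and -0.26 throughout, and edgeR on the recovered reads gave it an adjusted p of 0.0514. With median-ratio scaling of the libraries, which centres the median gene, its adjusted p was 0.0662. The split of all calls at e11.0 also turned with the scaling, from 664 higher and 1179 lower in the CPM as deposited to 1326 higher and 403 lower with median-ratio scaling.

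Markers of several cell types differed with the genotype at e11.0. Erythroid markers summed to 4940, 7510 and 11400 CPM in wild type replicates 1, 2 and 3 and to 6230, 6340 and 18000 CPM in the null, lower in the second pair, and 1 of 13 was called higher. Surface ectoderm markers summed to 380 to 948 CPM in wild type and 498 to 1130 CPM in the null, with 5 of 12 called higher. Limb mesenchyme markers, Pitx1 among them, were called lower for 7 of 11, endothelial markers for 9 of 12 and muscle precursor markers for 4 of 5. The summed mesenchyme markers were 1250 to 1680 CPM in wild type and 821 to 1200 CPM in the null, so the null libraries had less of this signal in all 3 replicates. The part of these shifts in the Lin28a and Lin28b difference was not tested.

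Trim71 and the 3 Igf2bp genes had lower means in the null without passing the test in the run-adjusted fit. Trim71 measured 167, 114 and 160 CPM in wild type and 117, 106 and 132 CPM in the null, with a log2 difference of -0.30 ± 0.12 and a limma adjusted p of 0.101. Igf2bp3 measured 280, 251 and 281 CPM in wild type and 240, 235 and 226 CPM in the null, groups that did not overlap. Its log2 difference was -0.21 ± 0.07, with a limma adjusted p of 0.0698. With Lin28a it was 1 of 2 members lower without overlap, against 13.7% of all genes lower, 4.78% higher and 18.5% in either direction. When limma was fitted with a block for replicate number, 4 of the 7 were called lower, with adjusted p of 0.0209 for Trim71 and 0.0380 for Igf2bp3, but that fit also called 3442 genes in all against 1843.

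Igf2bp1 and Igf2bp2 overlapped between the genotypes at e11.0. Igf2bp1 had 546, 367 and 707 CPM in wild type and 446, 372 and 504 CPM in the null, a log2 difference of -0.25 with a 95% interval of -0.55 to 0.05. Igf2bp2 had 221, 178 and 225 CPM in wild type and 192, 177 and 173 CPM in the null, a difference of -0.20 with an interval of -0.40 to 0.01. Wild type replicate 2 was the lowest of the 6 libraries for Igf2bp1 and lay among the null libraries for Igf2bp2. Without that library limma called 6 of the 7 genes lower, all except Hmga2, and 5273 genes in all. Hmga2 itself had 643, 628 and 505 CPM in wild type and 622, 630 and 442 CPM in the null, with a log2 difference of -0.08 (95% interval -0.23 to 0.07). The sign of Hmga2 turned with median-ratio scaling, and the groups overlapped.

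At e11.5 none of the 7 passed in limma, where 10.8% of all genes did, 2.83% higher and 7.96% lower. The split of all calls was 382 higher and 1073 lower, and 743 higher and 919 lower with median-ratio scaling. The unadjusted p was under 0.05 for 4 of the 7, and the share of all genes at that level was not counted. Of all 13478 listed genes edgeR called 1630 and DESeq2 called 1846. Of the 7, edgeR called 0, DESeq2 called 2 higher (Igf2bp1 and Igf2bp3) and the authors' deposited table called 1, Trim71. Its adjusted p there was 0.0306, and that table called 19.6% of all genes. Lin28a was the most variable member. It measured 17.1, 14.3 and 23.7 CPM in wild type and 6.61, 9.39 and 44.7 CPM in the null. Null replicates 1 and 2 were below every wild type library and null replicate 3 was above every one, so the 3 pairs differed by -1.25, -0.56 and 0.89 on the log2 scale. The fitted difference was -0.31 ± 0.30, with a limma adjusted p of 0.535 and a 95% interval of -0.997 to 0.38. Within run3982, replicates 1 and 2 alone, the difference was -0.90 with a limma adjusted p of 0.00946.

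Trim71 followed Lin28a in that library. It measured 62.9, 58.3 and 85.6 CPM in wild type and 68.0, 60.1 and 125 CPM in the null, so null replicate 3 was the highest of the 6. The log2 difference was 0.23 ± 0.09, with a limma adjusted p of 0.140. In the third pair 99.9% of genes had a smaller difference than Lin28a and 99.1% a smaller one than Trim71. Neural and Schwann markers summed to 21.8 CPM in null replicate 3, against 22.9 and 24.0 CPM in the other null libraries and 23.8 to 30.5 CPM in wild type. Limb mesenchyme markers summed to 1950 CPM in null replicate 3, against 2770 and 2480 CPM in the other null libraries and 2480 to 2970 CPM in wild type. Its surface ectoderm markers summed to 423 CPM, against 422 and 484 CPM in the other null libraries and 340 to 408 CPM in wild type. Its endothelial markers summed to 457 CPM, against 403 and 437 CPM in the other null libraries and 457 to 494 CPM in wild type. Replicate 3 was unstranded, and what set this library apart was not tested.

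Lin28b at e11.5 was at 111, 99.7 and 99.4 CPM in wild type and 101, 96.3 and 117 CPM in the null. The groups overlapped, and the log2 difference was 0.01 with a 95% interval of -0.15 to 0.18. Hmga2 had 1558, 1608 and 1235 CPM in wild type and 1406, 1489 and 1107 CPM in the null. It was the lower in the null in 3 of 3 pairs, with a log2 difference of -0.14 ± 0.05 and a limma adjusted p of 0.101. Its replicate 3 was the lowest library of each group, which made the groups overlap.

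Other markers differed between the genotypes at e11.5. Muscle precursor markers were called lower in the null for 9 of 9, with sums of 199 to 233 CPM in wild type and 119 to 150 CPM in the null, and cartilage markers for 10 of 11, with sums of 1290 to 1410 and 683 to 817 CPM. Cell cycle genes were called higher for 6 of 18, with sums of 5440 to 5730 CPM in wild type and 5930 to 6090 CPM in the null. Limb mesenchyme markers, Pitx1 among them, were called higher for 3 of 11 and lower for 2. Surface ectoderm markers summed to 340 to 408 CPM in wild type and 422 to 484 CPM in the null. Of these 12, limma called 1 higher, while edgeR and DESeq2 each called 6. Of all genes limma called 2.83% higher and 7.96% lower. The part of these shifts in the values of the 7 genes was not tested.

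All 3 Igf2bp genes had higher values in the null in 3 of 3 pairs at e11.5, with small differences. The share of all genes higher in 3 of 3 pairs was not counted. Igf2bp1 measured 510, 522 and 670 CPM in wild type and 585, 543 and 739 CPM in the null (log2 difference 0.13 ± 0.05, limma adjusted p 0.104). Igf2bp2 measured 401, 399 and 374 CPM in wild type and 408, 413 and 414 CPM in the null. It was the only member whose groups did not overlap, against 16.5% of all genes, 5.48% higher and 11% lower, and its difference of 0.07 had a 95% interval of -0.03 to 0.17. Igf2bp3 measured 380, 386 and 179 CPM in wild type and 412, 427 and 196 CPM in the null. Replicate 3, from the unstranded run, was below all other libraries in both genotypes. The log2 difference was 0.13 ± 0.04, with a limma adjusted p of 0.0789. Exons of Igf2bp3 share 1529 bases with Malsu1 on the opposite strand, which had a mean of 17.7 CPM at e11.5, and reads of the pair cannot be told apart where strand was not used.

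**Figure D4:**
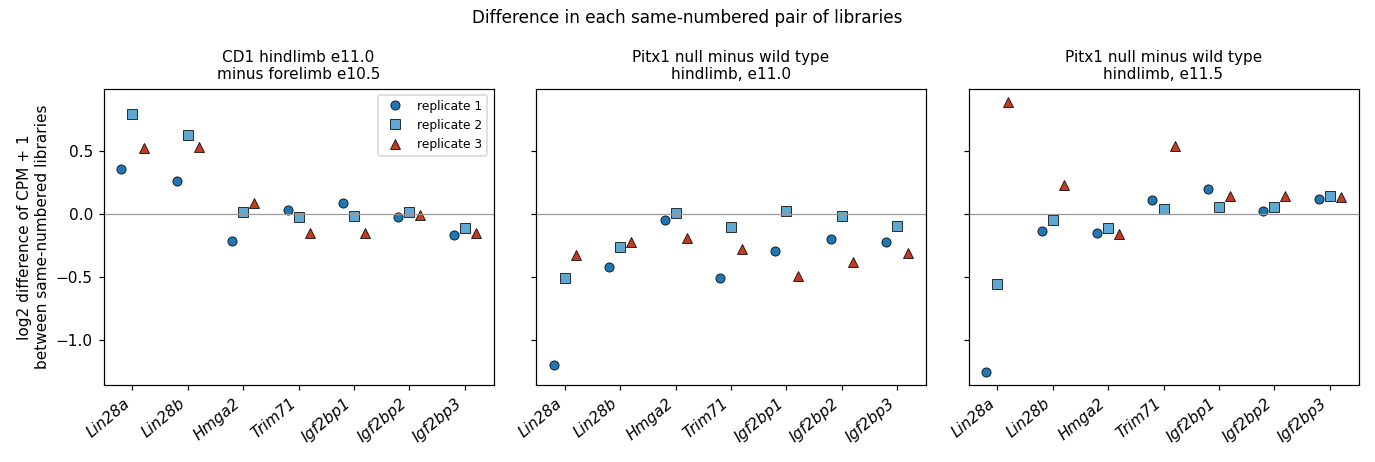
Log2 difference of CPM + 1 between same-numbered libraries (markers by replicate number) for each gene in the 3 comparisons. Lin28a and Lin28b are above 0 in all 3 CD1 pairs and below 0 in all 3 pairs at e11.0, and the Lin28a pairs at e11.5 run from -1.25 to 0.89.

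The change of the Pitx1 difference between e11.0 and e11.5 was tested as an interaction over the 12 Pitx1 libraries and 12935 genes. Library kind also differs between e11.0 and e11.5, so a change with stage and a change with library kind cannot be told apart. None of the 7 passed in limma, where 0.363% of genes did. The unadjusted p was under 0.05 for 5 of the 7, and the share of all genes at that level was not counted. Of the 7, edgeR called 0. Trim71, Igf2bp2 and Igf2bp3 had lower values in the null in 3 of 3 pairs at e11.0 and higher values in 3 of 3 pairs at e11.5. The median log2 difference of all genes was itself below 0 in the e11.0 pairs, at -0.08, -0.06 and -0.06. It was -0.01, -7e-04 and -0.05 in the e11.5 pairs. The share of all genes with this pattern of signs was not counted. For Igf2bp3 the 2 differences, -0.21 and 0.13, were 0.34 ± 0.09 apart with a limma adjusted p of 0.103, and for Trim71 they were 0.53 ± 0.17 apart with an adjusted p of 0.148. Lin28b, with differences of -0.30 and 0.01, also had an adjusted p of 0.148. For Lin28a the differences were 0.37 ± 0.38 apart with an adjusted p of 0.587, and for Hmga2 the change was -0.06. Without wild type replicate 2 of e11.0, 5 of the 7 passed: Lin28b, Trim71, Igf2bp1, Igf2bp2 and Igf2bp3. That fit called 2567 of all 12935 genes against 47 with all libraries, and the other fits without 1 library called as few as 10.

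Ordering the 6 groups by mean level separated the members. The order crosses tables and library kinds, so it carries no test. Lin28a ran from 80.5 CPM in CD1 hindlimb through 62.3 in e11.0 wild type and 54.3 in CD1 forelimb to 38.2 in the e11.0 null, and then to 20.2 and 18.4 CPM in the null and wild type at e11.5. Only the step from CD1 forelimb to the e11.0 null had no overlap between neighbours. Lin28b had the same order of groups, from 250.3 CPM in CD1 hindlimb to 103 CPM in e11.5 wild type, and every pair of neighbours overlapped. Trim71 ran from 227 CPM in CD1 forelimb to 69.0 CPM in e11.5 wild type, with overlap at every step.

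Hmga2 and Igf2bp2 went the other way. Both had higher values in all 6 libraries at e11.5 than in all 12 others, 1107 to 1608 against 442 to 748 CPM for Hmga2 and 374 to 414 against 173 to 305 CPM for Igf2bp2. The e11.5 libraries were of another kind and were normalized separately. How many of the 12677 genes listed in all 3 tables separate in this way was not counted. For Lin28a, Lin28b, Trim71, Igf2bp1 and Igf2bp3 the e11.5 libraries overlapped the others. The ratio of Hmga2 to Lin28b reads, in CPM and not per length, was 1.98 to 4.15 in the 12 libraries at e10.5 and e11.0 and 9.50 to 16.1 in the 6 at e11.5. The ratio of Lin28b to Lin28a was 2.72 to 3.97 in the 6 CD1 libraries. At e11.0 it was 3.24, 4.26 and 2.48 in wild type and 5.65, 5.08 and 2.67 in the null. At e11.5 it was 6.47, 6.97 and 4.19 in wild type and 15.2, 10.3 and 2.61 in the null, and replicate 3 had the lowest ratio in each of these 4 groups. Igf2bp1 to Igf2bp3 was 3.77 and 3.75 in the 2 unstranded libraries at e11.5 and 1.27 to 1.42 in the other 4. At e11.5 the ratio thus differed between replicate 3 and the other libraries in both genotypes, and run and unstranded preparation cannot be told apart there. In CD1 the Igf2bp1 to Igf2bp3 ratio was 1.0 in replicate 3 of both limbs and 2.2 to 2.6 in the other libraries. At e11.0 it was 2.2 in null replicate 3, 2.5 in wild type replicate 3 and 1.5 to 1.9 in the others.

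Genes with the most similar pattern were sought by the root mean square difference of log2(CPM + 1) over the 18 libraries, centred within each table and run. For Lin28a the 3 nearest of 12677 genes listed in all 3 tables were Mapk12 (0.270), Gtf2ird1 (0.277) and Lin28b (0.277), where the median over all genes was 0.394. Lin28b lay nearest to Elovl2 (0.083), Cep41 (0.087) and Mid1ip1 (0.090), with a median of 0.195, and Lin28a, whose own deviations were larger, was at 0.277. Hmga2 was nearest to Thap12 (0.037), Tspan3 (0.038) and Sh3glb1 (0.038), with a median of 0.12, and its own root mean square deviation of 0.068 was small. These likenesses are descriptions and include the shared depth and composition of the libraries.

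The other genes of the let-7 pathway were followed as lists. The machinery that matures and decays let-7 (13 genes, among them Dicer1 and the Argonautes) had 0 genes called in CD1 by limma, with 2 at an unadjusted p under 0.05 and 0 called by edgeR or DESeq2. In the null at e11.0, where 8.41% of all genes were called lower, 4 of 13 fell, among them Dicer1, which cuts the let-7 hairpin, by 0.40, and Ago1 and Ago3, which carry mature microRNAs, by 0.33 and 0.32 on the log2 scale. Their median was -0.25, against -0.07 for all genes, and edgeR and DESeq2 called 3 and 1 of the 13. At e11.5, where 7.96% of all genes were called lower, Ago4 was the 1 gene of 13 called, which fell by 0.44.

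Textbook let-7 targets other than the 7 moved both ways. Of 24 tested, 1 rose and 4 fell in CD1 hindlimb, 0 rose and 1 fell in the null at e11.0, and 3 rose and 2 fell at e11.5. Over all genes the CD1 comparison called 2.41% higher and 3.46% lower. The e11.0 comparison called 4.73% higher and 8.41% lower, and that at e11.5 called 2.83% higher and 7.96% lower. Plagl1, an imprinted zinc finger factor, fell by 0.49 at e11.0 and by 0.73 at e11.5 on the log2 scale. Irs2, an adaptor of the insulin receptor, was higher in CD1 hindlimb by 0.38 and fell by 0.38 in the e11.5 null. Hmga1, the paralog of Hmga2, rose in the e11.5 null by 0.37, from 148 ± 2.26 to 191 ± 18.1 CPM (SD, n = 3). Ccnd2, a cyclin of the G1 phase, fell by 0.25 in CD1 hindlimb. The median log2 difference of the list was -0.06, -0.07 and 0.03 in the 3 comparisons, where all genes had 0.01, -0.07 and -0.02.

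Of the transcripts that carry let-7 hairpins, 4 were listed in the CD1 and e11.5 tables and 6 at e11.0. Mir99ahg, the noncoding host of let-7c-1, fell by 0.51 in CD1 hindlimb, from 20.6 ± 17.8 to 13.7 ± 11.3 CPM (SD, n = 3). The transcript named 2610203C20Rik in the deposited tables, which is 3110039I08Rik in GENCODE, was called lower in the null at e11.0 by -0.41 and at e11.5 by -0.53, with limma adjusted p of 0.0438 and 0.0496. edgeR called 0 host transcripts in the null at either stage, and DESeq2 called 1 at e11.0 and 0 at e11.5. Of all genes limma called 3.46% lower in CD1 hindlimb, 8.41% lower in the null at e11.0 and 7.96% lower at e11.5. Wdr82 and Huwe1, which hold hairpins in introns, did not pass in any of the 3 comparisons. A level of a host transcript is not a level of mature let-7.

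The insulin-like growth factor axis, whose mRNAs include known cargo of the Igf2bp proteins, had 12 genes tested, with the 3 Igf2bp genes among them. In CD1 hindlimb Igf1, a growth factor, rose by 1.10 on the log2 scale, from a mean of 42.1 to 89.4 CPM, and 2 genes fell. Of all genes 2.41% were called higher and 3.46% lower in that comparison. In the null 3 of 12 fell at e11.0 and 5 of 12 at e11.5, where 8.41% and 7.96% of all genes were called lower. The shifts of muscle, cartilage and cell cycle markers given above were in the same e11.5 libraries, and their part was not tested. Igfbp3, a secreted binding protein of the growth factors, fell in all 3 comparisons, by 0.38, 0.37 and 0.45 on the log2 scale. Igfbp2, of the same family, fell by 0.33 at e11.0 and 0.60 at e11.5, and H19, the noncoding RNA beside Igf2, fell by 0.29 at e11.5. A background list of 18 other RNA-binding proteins of RNA granules, such as Ybx1, G3bp1 and Fxr1, had 0 called by limma in each comparison, with 3, 3 and 1 at an unadjusted p under 0.05, while edgeR called 0, 1 and 1 and DESeq2 0, 2 and 2.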

How the data were processed

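RNA-seq libraries of 18 limb bud samples were compared within 3 tables. The submitters' processing notes name STAR, featureCounts, edgeR and the mouse build GRCm38 (mm10). Versions, settings, roles and use of strand are not given in the sources used here. The deposited CPM are the authors' values per 1000000 reads on listed genes, and no gene was listed unless 3 or more libraries passed 0.5 CPM. The authors also deposited a log2 fold change, an average log2 CPM, a likelihood-ratio score, a p-value and an adjusted p-value, per the file headers.

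Each table was fitted with limma 3.58.1 (R 4.3.3, limma-trend) on log2(CPM + 1), with terms for group and run. Tests were two-sided and adjusted by the Benjamini-Hochberg method across the whole table, with a threshold of 0.05. Each fit left 3 residual degrees of freedom. The variance of each gene was then drawn toward a trend over all genes. The limma standard errors, p-values and intervals use this moderated variance and so rest on more than these 3 degrees of freedom. The share of all genes with an unadjusted p under 0.05 was not counted, so counts of genes at that level have no background here. The share of all genes with the same sign in 3 of 3 pairs was not counted either, so counts of pairs have none. CD1 replicate 3 was treated as another run because its title names none. The log2(CPM + 1) scale understates changes of low genes. All CPM values were whole multiples of 1 read within 0.01 read (100% of values), so edgeR 4.0.16 and DESeq2 1.42.0 were run on these recovered reads as alternatives, not as the main test. By edgeR 881 genes were called in CD1, 1734 at e11.0 and 1630 at e11.5. By DESeq2 the counts were 830, 1800 and 1846. These totals are the background for the edgeR and DESeq2 counts of members and lists in the 3 comparisons. Other alternatives were pseudocounts of 0.5 and 0.25, a minimum mean of 1 CPM, TMM, median-ratio and upper-quartile scaling, no run term, a replicate block, run3982 alone, the authors' deposited adjusted p, and each library left out. Intervals and depths cover counting and sample spread only, since reads carry no molecular identifiers.

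Same-numbered libraries deviated together from their group means, with correlations across genes of 0.686, 0.798 and 0.939 for replicates 1, 2 and 3 of the CD1 limbs. The e11.0 genotypes gave 0.662, 0.637 and 0.855, and those of e11.5 gave 0.733, 0.830 and 0.914. Replicate 1 of one group against replicate 2 of the other gave 0.748 and 0.852 for the CD1 limbs. For the e11.0 genotypes these were 0.529 and 0.407, and for those of e11.5 they were 0.632 and 0.627, so in CD1 the numbers do not separate the libraries of run3982. The pairing rests on these values alone, which also reflect the shared run. Gene models and 3′UTRs came from GENCODE M 21, matched by gene identifier, and microRNA sequences from RefSeq. Named genes were all 7 members, Pitx1, and from each list the 4 genes with the lowest adjusted p in any comparison, or all of a list with at most 5 tested, with the 3 genes nearest in pattern to Lin28a, Lin28b and Hmga2. Prrx1, Malsu1 and the other genes with 4 or more seed matches were named outside this rule, after their values were seen. The scripts were tested on simulated data. The members, lists and tests were chosen with earlier results of these data known.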

Additional observations from a re-analysis of the deposited data

How the results depend on the processing

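Over 18 alternatives for each of the 7 genes (22 for the interaction), direction and side of the threshold were kept 114 times in CD1, 105 at e11.0, 114 at e11.5 and 146 for the interaction. In CD1 the count of 2 became 0 without the run term and 3 by DESeq2. At e11.0 the count of 2 became 0 without the run term, 1 with median-ratio scaling, 1 within run3982, 1 by edgeR, 1 by DESeq2 and 4 with the replicate block. At e11.5 the count of 0 became 1 with TMM scaling, 1 with median-ratio scaling, 1 within run3982, 2 by DESeq2 and 1 in the authors' deposited table. Leaving out 1 library gave 2 in each fit for CD1, 0 to 6 at e11.0, 0 to 1 at e11.5 and 0 to 5 for the interaction. Signs turned only in members that had not passed. Within run3982 the CD1 difference was 0.00044 for Trim71 and 0.036 for Igf2bp1, the e11.5 difference was -0.092 for Lin28b, and the Lin28a interaction was -0.050. At e11.0 Hmga2 was 0.019 with median-ratio scaling and 0.019 by DESeq2. Over the fits without 1 library, the CD1 range was -0.10 to 0.025 for Hmga2, -0.098 to 0.00044 for Trim71, -0.072 to 0.036 for Igf2bp1 and -0.023 to 0.011 for Igf2bp2. It was -0.092 to 0.088 for Lin28b at e11.5 and -0.23 to 0.67 for Lin28a in the interaction. The replicate block, which rests on the pairing of same-numbered libraries, gave 2 in CD1, 4 at e11.0, 0 at e11.5 and 0 for the interaction and changed no other count. Over all genes, 795, 1843 and 1455 calls became 13, 5 and 11 without the run term, 471, 199 and 483 within run3982, and 1689, 2895 and 2644 in the authors' deposited table. Leaving out 1 library gave 394 to 1191, 116 to 5273 and 433 to 2627 calls, and 10 to 2567 for the interaction, where all libraries gave 47. The cause of these changes was not tested, and the fits that left out libraries also held fewer of them. DESeq2 was not run for the interaction.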

Other observations

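Genes outside the 7 whose 3′UTR holds CTACCTC were counted with the same limma calls, since the seed match describes the members. In CD1, 2.63% of 1331 such genes were higher in hindlimb and 3.83% lower, against 2.45% and 3.5% of 10885 genes with no match. In the null at e11.0, 2.92% of 1336 were higher and 11% lower, against 4.93% and 9.13% of 10984. At e11.5 the shares were 2.27% and 9.38% of 1364, against 3.01% and 8.25% of 11157. The medians of the log2 difference at e11.0 were -0.13 with a match and -0.08 without. Genes with a match have longer 3′UTRs, and the difference between these classes was not tested.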
